A study of Mus musculus with 8 samples.

Results

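The muscle acetylcholine receptor is a pentamer in the postsynaptic membrane of the neuromuscular junction that opens when the motor nerve releases acetylcholine. It is built from 5 genes, and 5 of the 19938 genes named on the array make up the set described here. Chrna1 encodes the alpha subunit that carries most of the acetylcholine-binding site, Chrnb1 the beta subunit through which the receptor is held by rapsyn, and Chrnd the delta subunit. Chrng encodes the gamma subunit of the embryonic receptor, and Chrne the epsilon subunit that takes its place in the adult receptor. The members were chosen by gene symbol, with earlier results of these data known, and each was read by 1 probe set. In innervated adult fibres the receptor genes are transcribed mainly by the nuclei under the synapse. After denervation, nuclei along the whole fibre are known to take up transcription of the alpha, beta, gamma and delta genes, which is the textbook sign of lost nerve activity.

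Expression was measured at an age of 3 months in wild-type (WT) mice and in SCA17 KI mice, which carry a knock-in, in the cerebellum and in the tibialis anterior (TA), a fast muscle of the lower leg. The human disease SCA17 is a dominantly inherited ataxia in which the glutamine tract of the TATA-binding protein TBP is lengthened. The 8 arrays formed 4 groups of 2: WT cerebellum and WT muscle (replicates 95 and 96), and KI cerebellum and KI muscle (replicates 94 and 97). The labels speak of 3 mice for either genotype, while 2 arrays of each group were analysed here. The sources used here do not give the length of the repeat, the strain or the sex. No label says which arrays came from separate animals, so the p values measure only the spread between these arrays, which may be technical. The arrays of a group correlated with r between 0.977 and 0.989 over all probe sets, and array medians lay between 5.40 and 5.51. Values are log2 expression levels, and a difference of 1 is 2-fold. A level under the 40th percentile of its array, which lay between 4.96 and 5.05, is called low here, and such values are close to the background of the array.

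The tissue labels were borne out by the markers. The mean log2 level of 10 muscle fibre genes was between 11.35 and 11.86 on the muscle arrays and between 5.17 and 5.42 on the cerebellum arrays. The mean of 9 genes of cerebellar neurons was between 10.34 and 10.91 in the cerebellum and between 4.98 and 5.14 in muscle.

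The sequences upstream of the receptor genes are shown because their known control differs between subunits. E-boxes (letters CANNTG) are the sites of myogenic factors such as MyoD and myogenin, which drive these genes in developing and denervated fibres. The N-box (letters CCGGAA) is the site of the ETS factor GABP, known from the delta and epsilon genes of synaptic nuclei. The RefSeq table of promoters (GRCm38.p6) held 4 of the 5 members, without Chrnd. The 250 bases before each annotated start are printed 5′ to 3′ on the strand of the gene, with E-boxes and N-boxes in capitals. They lie at chr2:73580339-73580588 for Chrna1, chr11:69795938-69796187 for Chrnb1 and chr11:70619195-70619444 for Chrne, all on the minus strand, and at chr1:87205561-87205810 on the plus strand for Chrng.
Chrna1: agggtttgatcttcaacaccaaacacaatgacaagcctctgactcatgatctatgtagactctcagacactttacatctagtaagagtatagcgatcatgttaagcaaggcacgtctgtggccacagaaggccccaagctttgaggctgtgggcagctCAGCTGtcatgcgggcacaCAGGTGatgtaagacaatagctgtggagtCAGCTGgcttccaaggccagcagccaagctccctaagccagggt
Chrnb1: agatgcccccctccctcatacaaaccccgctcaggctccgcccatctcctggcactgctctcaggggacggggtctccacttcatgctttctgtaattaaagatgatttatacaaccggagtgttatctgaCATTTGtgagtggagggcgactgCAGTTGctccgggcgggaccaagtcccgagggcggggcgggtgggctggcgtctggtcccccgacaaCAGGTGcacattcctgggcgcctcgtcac
Chrng: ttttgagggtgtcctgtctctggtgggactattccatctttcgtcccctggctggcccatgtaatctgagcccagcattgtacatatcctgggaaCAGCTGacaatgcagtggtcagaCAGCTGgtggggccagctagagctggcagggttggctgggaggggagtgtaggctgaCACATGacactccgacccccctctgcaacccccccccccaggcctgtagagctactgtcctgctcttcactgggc
Chrne: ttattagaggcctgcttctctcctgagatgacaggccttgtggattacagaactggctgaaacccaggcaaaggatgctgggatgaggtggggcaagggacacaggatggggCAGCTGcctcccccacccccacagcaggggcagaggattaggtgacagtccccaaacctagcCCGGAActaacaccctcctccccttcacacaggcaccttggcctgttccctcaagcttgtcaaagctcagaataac

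Both strands were searched, and the 2 motifs did not overlap in these windows. Chrna1, Chrnb1 and Chrng each held 3 E-boxes, and Chrne held 1. Among all 32851 windows of this length, 66.2% held at least 1 and 12.2% held 3 or more. Chrna1 had 2 copies of the form CAGCTG, whose first bases lay at -92 and -44 from the start (-1 is the base just before it), and a CAGGTG at -73. Chrng had CAGCTG at -155 and -132, and Chrne had it at -138, a form present in 13.0% of all windows. The N-box stood at -76 in Chrne and in none of the other 3 windows, and 12.0% of all windows held one. These matches describe letters and are no evidence of binding.

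The first comparison asked whether the receptor genes differ between KI and WT muscle. The alpha and beta subunits were higher in KI, the adult epsilon subunit had a lower value that missed the threshold, and the embryonic gamma subunit lay a little above the 40th percentile in both genotypes, with a difference whose interval included 0. Of the 5 members, 4 passed the filter on low values in muscle, and Chrnd did not. Of these 4, 2 were called higher and 0 lower at an adjusted p of 0.05 in limma, against 2.66% called higher and 0.89% called lower among the 13933 genes tested. Earlier results of these data were known when the members were chosen, so this count is no independent support for a direction. In all 5 the 2 KI arrays lay to one side of the 2 WT arrays, 2 members above and 3 below, as did 30.3% (above) and 19.9% (below) of all tested genes. Of the 3 below, Chrng and Chrnd had values close to background.

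**Figure D1:**
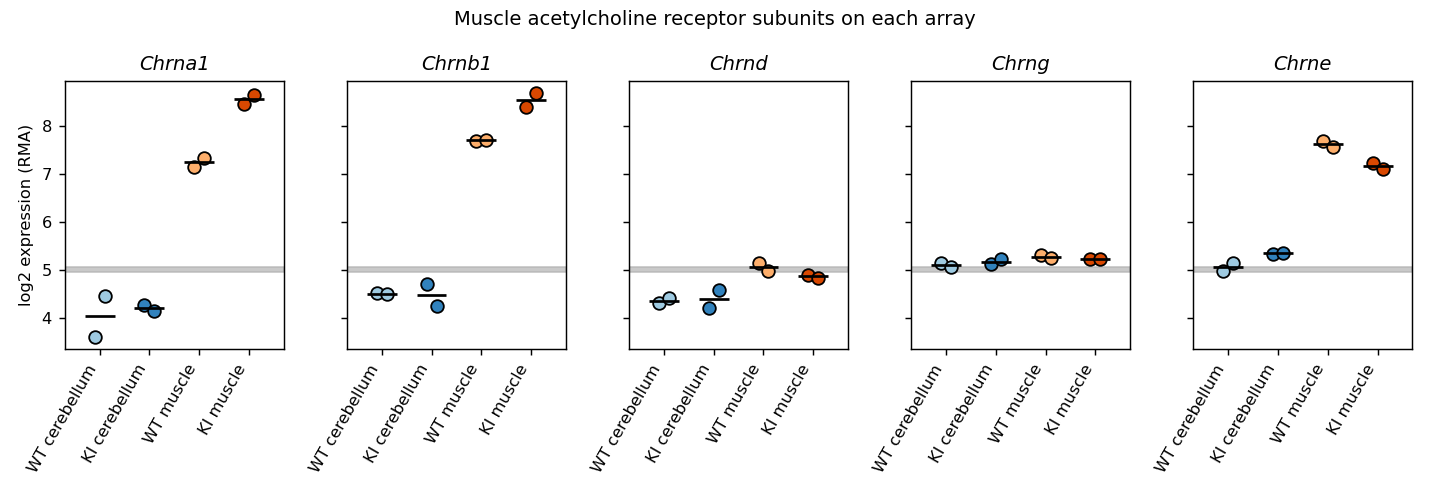
Log2 expression of the 5 receptor subunit genes on each array, by group; points are arrays, horizontal lines are group means (n = 2), and the grey band is the range of the 40th percentile over the 8 arrays. Chrna1 and Chrnb1 stand above the band in muscle and higher in KI than in WT, Chrne stands above it in muscle and lower in KI, and Chrnd and Chrng lie near it in muscle.

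Chrna1 had a log2 level of 7.15 and 7.33 on the WT muscle arrays and of 8.46 and 8.63 on the KI muscle arrays. The lowest KI array lay 1.13 above the highest WT array, and the arrays within a genotype differed by at most 0.18. The alpha subunit gene thus rose 2.48-fold in KI muscle, by 1.31 ± 0.23 on the log2 scale (SE, 95% interval 0.79 to 1.83, n = 2 per group; limma adjusted p = 0.0202). It ranked 22 of 13933 genes by the size of the rise. In bulk tissue, more receptor-expressing cells or nuclei and more RNA in each of them cannot be told apart.

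Chrnb1 had a log2 level of 7.69 and 7.70 on the WT arrays and of 8.39 and 8.68 on the KI arrays. The gap between the genotypes, 0.69, was wider than the 0.29 between the 2 KI arrays. The beta subunit gene rose 1.79-fold, by 0.84 ± 0.16 (SE, 95% interval 0.48 to 1.19; limma adjusted p = 0.0258), and ranked 109 by the size of the rise. Both calls rested on all 4 muscle arrays. Without any 1 of them the adjusted p was from 0.0676 to 0.124 for Chrna1 and from 0.0507 to 0.122 for Chrnb1, and Chrnb1 was also not called without WT cerebellum replicate 95 (0.0516) or 96 (0.0522). With every probe set tested as its own feature, the adjusted p was 0.0865 for Chrna1 and 0.0920 for Chrnb1.

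Chrne, the adult subunit, pointed the other way. Its log2 level was 7.69 and 7.56 in WT muscle and 7.22 and 7.10 in KI muscle. The genotypes did not overlap, and the gap of 0.34 exceeded the 0.13 between the WT arrays and the 0.12 between the KI arrays. The difference was -0.46 ± 0.11 (SE, 95% interval -0.72 to -0.21), or 1.38-fold, with an unadjusted p of 0.00252 and an adjusted p of 0.0598 in limma, so it was not called. It was called after a repeated quantile normalisation within each tissue (-0.55, adjusted p = 0.0349) and with the filter at the 60th percentile (adjusted p = 0.0401). Its adjusted p over all alternatives ran from 0.0349 to 0.257.

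Chrng, the embryonic subunit, was at 5.31 and 5.24 in WT muscle and at 5.23 and 5.23 in KI muscle. All 4 values sat between percentiles 45.4 and 46.1 of their arrays, and the genotypes were separated by only 0.009. The difference of -0.04 ± 0.10 had a 95% interval from -0.28 to 0.19 (limma adjusted p = 0.859), which leaves out a rise of the size seen for Chrna1 or Chrnb1 on this probe set. The cerebellum, which holds no neuromuscular junctions, gave 5.05 to 5.22 for the same probe set. The 4 muscle values lay just above these. In limma the difference between the tissues did not pass (adjusted p = 0.159 in WT and 0.636 in KI). The muscle values thus stood close to those of a tissue that serves as background. A rise that starts below the background of the array could not be seen here.

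Chrnd, the delta subunit, was at 5.14 and 4.98 in WT muscle and at 4.89 and 4.84 in KI muscle, and only WT replicate 95 exceeded the 40th percentile of its array. It was therefore not tested. In the fit with no filter its difference was -0.19 ± 0.14 (SE, 95% interval -0.52 to 0.13, adjusted p = 0.534). Chrnd and Chrng are neighbours on chromosome 1 in the RefSeq table (GRCm38.p6), and both of their probe sets lay close to background. Chrna1 lies on chromosome 2, and Chrnb1 and Chrne on chromosome 11. The locus Gm30940 overlaps Chrna1 and 4930544D05Rik overlaps Chrne in that table, and whether their RNA reaches these probe sets was not tested.

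**Figure D2:**
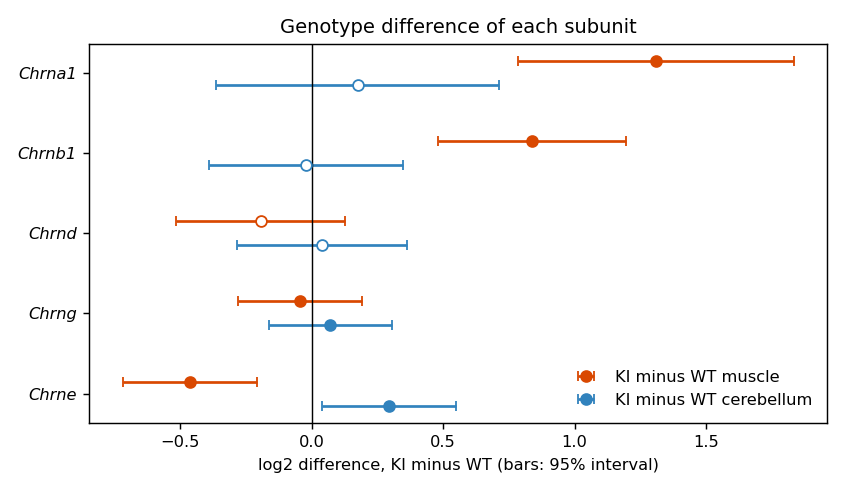
Log2 difference, KI minus WT, of each subunit gene in muscle (orange) and cerebellum (blue); bars are 95% intervals from limma, filled points passed the filter on low values, and open points did not and come from the fit with no filter. The intervals of Chrna1 and Chrnb1 lie above 0 in muscle, that of Chrne lies below 0 in muscle and just above 0 in cerebellum, and all others include 0.

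Subunits were then compared within arrays. Probe sets differ in brightness, so the level of a within-array difference means nothing by itself and only its change between genotypes was read. Chrng minus Chrne, the embryonic against the adult subunit, was -2.38 and -2.32 on the WT muscle arrays and -1.99 and -1.87 on the KI muscle arrays. It was higher in KI by 0.42 on the log2 scale, and the groups did not overlap. A two-sided exact permutation test gave p = 0.333, the smallest value that 2 against 2 arrays allow, so no such test can pass here. The change of Chrne alone was -0.46 and that of Chrng -0.04. The Chrng values of muscle lay close to those of the cerebellum, and the difference between the tissues did not pass in limma. The shift thus sets Chrne against a value close to background. No change in the balance of the embryonic and adult subunits is read from this shift.

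Of the 10 pairs of subunits, 7 include Chrng or Chrnd and share this limit, and only the other 3 are described. Chrna1 against Chrne was -0.54 and -0.23 in WT and 1.24 and 1.53 in KI, a change of 1.77. Chrnb1 against Chrne moved from 0.00 and 0.14 to 1.17 and 1.58, a change of 1.30. Chrna1 against Chrnb1 moved by 0.47, from -0.55 and -0.36 to 0.08 and -0.05. In these 3 pairs the groups did not overlap, and the exact permutation p was 0.333 for each, before and after adjustment over the 10 pairs.

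The cerebellum served as background for receptors of the muscle type. Of the 5 members, 2 passed the filter on low values there (Chrng and Chrne). Limma called 0 of the 2, against 0.205% called among the 13641 genes tested. At an unadjusted p under 0.05 there was 1. The share of all genes at that level is not given, so no excess is read from this count. Chrna1 was between 3.60 and 4.46 on the 4 cerebellum arrays, Chrnb1 between 4.26 and 4.70 and Chrnd between 4.21 and 4.57, and all of these were low. KI and WT arrays overlapped for Chrna1, Chrnb1, Chrnd and Chrng. Chrne was at 4.97 and 5.13 in WT and at 5.33 and 5.36 in KI cerebellum. The higher KI values did not overlap the WT values, but the difference of 0.29 ± 0.11 did not pass (limma unadjusted p = 0.0284, adjusted p = 0.845). Of all tested genes, 15.3% had both KI arrays above both WT arrays.

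In WT animals, Chrna1 was higher in muscle than in cerebellum by 3.21 ± 0.23 on the log2 scale, Chrnb1 by 3.19 ± 0.16 and Chrne by 2.57 ± 0.11 (SE). These are 9.26-fold, 9.15-fold and 5.96-fold, and the limma adjusted p of Chrne was 5.62e-08. Because the cerebellum values were at or near the background of the array, the folds depend on that background. Chrna1 and Chrnb1 passed the filter only through muscle, where they are high, so a difference was built into their selection. Their p values would be no support for a difference and are not given, and no count of members is drawn. Chrne passed in both tissues. In KI the differences were 4.35 ± 0.23 for Chrna1, 4.05 ± 0.16 for Chrnb1 and 1.82 ± 0.11 for Chrne. Chrng differed between the tissues by 0.18 ± 0.10 in WT (adjusted p = 0.159) and by 0.06 ± 0.10 in KI (adjusted p = 0.636). Chrnd, tested only with no filter, was higher in WT muscle by 0.70 ± 0.14 (adjusted p = 0.00263), under 2-fold. From low to high, the group means of Chrna1 and Chrnb1 stood in the order cerebellum, WT muscle, KI muscle, with no difference beyond the spread between the 2 cerebellum groups. For Chrne the order was WT cerebellum, KI cerebellum, KI muscle, WT muscle.

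Among the other nicotinic subunits, Chrnb2 (-3.19 ± 0.14, log2 ± SE), Chrna4 (-1.40 ± 0.15) and Chrna7 (-1.24 ± 0.12), which passed the filter on low values in both tissues, were called lower in WT muscle than in WT cerebellum, with limma adjusted p of at most 2.36e-05. Of all 14708 genes tested, 16.4% were called lower, at an adjusted p of 0.05 and at least 2-fold. Chrna3 was lower by less than 2-fold (-0.93 ± 0.20, adjusted p = 0.00237), Chrnb4 did not pass (-0.15 ± 0.16, adjusted p = 0.42), and 5 of the 11 were not tested. Chrna9 was higher in muscle in both genotypes, by 0.51 ± 0.12 in WT (adjusted p = 0.00346, under 2-fold) and by 1.36 ± 0.12 in KI (adjusted p = 5.62e-06). It was low on 3 of the 4 cerebellum arrays and passed the filter only through muscle. Chrna3 and Chrnb4 passed it only through the cerebellum. For Chrna9, Chrna3 and Chrnb4 the selection thus favoured the tissue where each was higher, and their p values are no support for a difference.

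Whether the genotype difference itself differs between the tissues was tested as the muscle difference minus the cerebellum difference. It was 1.13 ± 0.33 for Chrna1 (limma unadjusted p = 0.00701, adjusted p = 0.198), 0.86 ± 0.22 for Chrnb1 (0.00373 and 0.157) and -0.76 ± 0.16 for Chrne (0.000986 and 0.106). Of the 4 members tested 0 were called, beside 0.143% of the 14708 genes tested. At an unadjusted p under 0.05 there were 3. The share of all genes at that level is not given, so no excess is read from this count. Chrna1 and Chrnb1 were low on all 4 cerebellum arrays and entered this test only through muscle, so the cerebellum difference subtracted for them is one between values close to background. A difference between the tissues in the response of these subunits was not established.

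Genes that act with the receptor were read from lists of known roles. Of 19 tested genes of receptor clustering and the postsynaptic scaffold, 3 were called higher and 0 lower. Of all 13933 genes tested in muscle, 2.66% were called higher and 0.89% lower. The median log2 difference of the list was 0.15, beside 0.03 over all genes tested. Musk, the kinase through which agrin gathers receptors under the nerve, was at 6.84 and 6.68 in WT muscle and at 8.68 and 8.39 in KI muscle. It rose 3.41-fold (1.77 ± 0.14, adjusted p = 0.0012). Lrp4, the agrin receptor that activates Musk, rose 1.68-fold, from 6.63 and 6.51 to 7.31 and 7.34 (adjusted p = 0.00942), and its call was lost when KI muscle replicate 97 (0.0584) or WT muscle replicate 96 (0.0501) was left out, and also with every probe set tested (0.0519). Cttn, the actin-binding protein cortactin, rose by 0.52 ± 0.11 (adjusted p = 0.038) and lost its call without any 1 array. Rapsn, the scaffold that binds the beta subunit directly, was at 7.31 and 7.13 in WT and at 7.51 and 7.47 in KI muscle, a difference of 0.27 ± 0.14 that did not pass (adjusted p = 0.312). Agrn (0.27 ± 0.11), Dok7 (-0.14 ± 0.11) and the synaptic acetylcholinesterase gene Ache (0.05 ± 0.19) did not pass either.

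**Figure D3:**
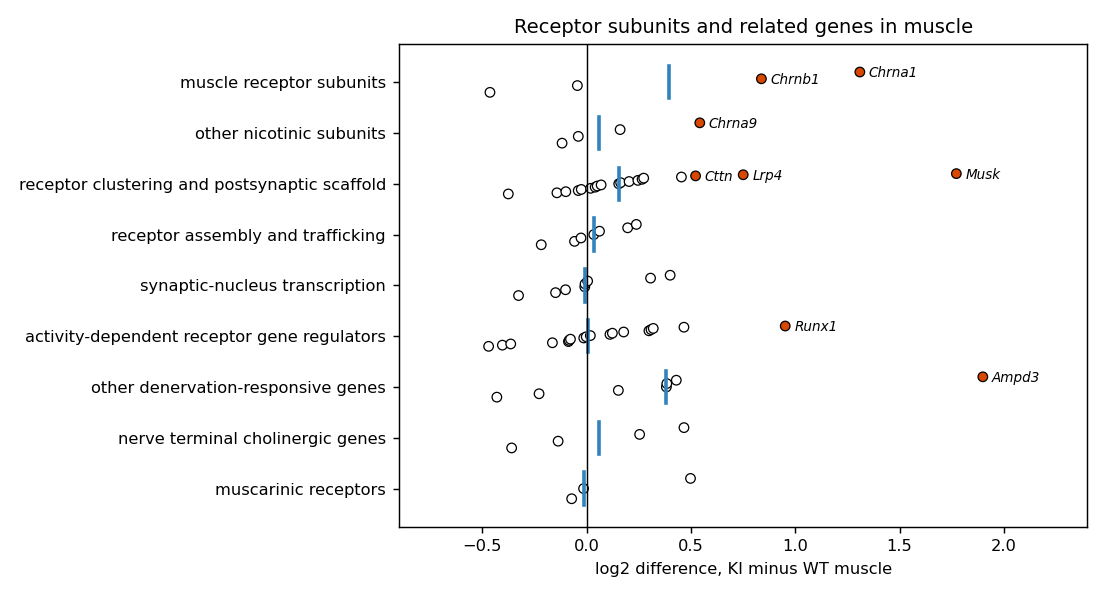
Log2 difference, KI minus WT muscle, of the tested genes of 9 lists around the receptor; orange points with names were called in limma at an adjusted p of 0.05, open points were not, and blue bars are list medians. Named genes all lie to the right of 0, and the lists for assembly, synaptic-nucleus transcription, nerve terminal and muscarinic receptors hold none.

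Regulators that read nerve activity gave a mixed picture. Of 18 tested, 1 was called higher and 0 lower, beside 2.66% and 0.89% of all genes tested in muscle. The median was 0.01. At an unadjusted p under 0.05 in limma 5 were higher and 2 lower. Counts at that level in this paragraph stand without the share of all genes, so no excess is read from them. Nearest to the threshold without a call were Tcf4 (0.47 ± 0.11, adjusted p = 0.0522) and Id1 (-0.40 ± 0.11, adjusted p = 0.0748). Runx1, a transcription factor known to be induced in denervated muscle, rose 1.93-fold, from 6.29 and 6.16 in WT to 7.29 and 7.07 in KI (adjusted p = 0.00576). Myog, a myogenic factor that binds E-boxes and is known to rise after denervation, was at 5.86 and 5.48 in WT and at 5.31 and 5.08 in KI muscle. Its difference was -0.47 ± 0.17 and did not pass (adjusted p = 0.159). Myod1, which binds the same motif, differed by 0.02 ± 0.13 (adjusted p = 0.962), with overlapping genotypes. The myogenic factor genes Myf6 (0.30 ± 0.11, adjusted p = 0.179) and Myf5 (-0.08 ± 0.12, 0.739) did not pass either. The deacetylase Hdac4 (-0.16 ± 0.14) and the corepressor Dach2 (-0.36 ± 0.29), which link inactivity to Myog, did not pass. None of 8 genes of synaptic-nucleus transcription was called in limma, with 1 higher and 1 lower at an unadjusted p under 0.05. Among them Gabpb1, a subunit of the N-box factor GABP, was at 0.40 ± 0.12 (adjusted p = 0.114), Gabpa at 0.31 ± 0.15 (0.286), Ets2 at -0.33 ± 0.14 (0.224) and the neuregulin receptor gene Erbb2 at -0.01 ± 0.14 (0.988).

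Of 7 tested genes from a list of other denervation-responsive genes, 1 was called, the AMP deaminase gene Ampd3 (1.90 ± 0.16, adjusted p = 0.00127). Ampd3 was higher in KI, as were 2.66% of all genes tested in muscle by the same threshold. The median of the list was 0.38. The neural cell adhesion molecule gene Ncam1, which spreads over the fibre after denervation, was at 0.38 ± 0.13 (adjusted p = 0.155), the potassium channel gene Kcnn3 at 0.38 ± 0.13 (0.145) and Gadd45a at 0.43 ± 0.17 (0.195). The atrophy ligase genes had negative values, Fbxo32 of -0.43 ± 0.12 (0.0897) and Trim63 of -0.23 ± 0.13 (0.344). The embryonic myosin gene Myh3 was low and not tested, and the perinatal Myh8 differed by 0.15 ± 0.18 (0.676). The denervation and junction lists were partly chosen with earlier results of these arrays known, so their counts are no independent support for a direction.

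Of 7 tested genes of receptor assembly and trafficking, limma called none, also at an unadjusted p under 0.05, and the median was 0.03. Unc50, needed for assembly of nicotinic receptors in worms, was at 0.20 ± 0.11 (adjusted p = 0.342), the chaperone gene Hspa5 at -0.22 ± 0.16 (0.493) and the myosin Va gene Myo5a, which takes part in receptor recycling, at 0.24 ± 0.23 (0.604). Of 11 other nicotinic subunit genes 4 were tested in muscle and 1 was called higher, beside 2.66% of all genes tested there. Chrna9, known as a receptor subunit of cochlear hair cells, was at 5.62 and 5.53 in WT and at 6.11 and 6.13 in KI muscle. It rose 1.46-fold (0.54 ± 0.12, adjusted p = 0.0379) and was not called without any 1 array (0.0520 to 0.137). Chrna4 (-0.04 ± 0.15), Chrna7 (-0.12 ± 0.12) and Chrnb2 (0.16 ± 0.14) did not pass. Of 3 tested muscarinic receptor genes and 4 tested nerve terminal genes none was called in limma, with 1 of the 7, Chrm3 (0.50 ± 0.14, adjusted p = 0.096), at an unadjusted p under 0.05.

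Markers of the cells of muscle were set beside these results. The mean level of the 10 muscle fibre genes was between 11.78 and 11.86 in WT and between 11.35 and 11.49 in KI muscle, without overlap. Of the 10, Actn3 (-0.60 ± 0.13, limma adjusted p = 0.0372) and Tnni2 (-0.55 ± 0.12, 0.0409) were called lower, beside 0.89% of all genes tested in muscle. In the same fit 7 were lower at an unadjusted p under 0.05, and the median was -0.51. The myoglobin gene Mb was at -0.98 ± 0.24 (adjusted p = 0.0579). Positive values were seen for 2 of the 10, Des (0.28 ± 0.14, adjusted p = 0.300) and Ttn (0.01 ± 0.13, 0.985), which did not pass. The call held in 8 of 18 alternatives for Actn3 and in 7 of 18 for Tnni2, and neither held without any 1 muscle array (0.107 to 0.145 and 0.0760 to 0.192). The mean of 9 macrophage markers was 5.87 to 5.88 in WT and 6.02 to 6.21 in KI, with 0 of 8 tested called in limma and 4 higher at an unadjusted p under 0.05. That of 7 satellite cell markers was 6.13 to 6.16 in WT and 6.24 to 6.34 in KI, with 0 of 7 called and 1 higher at an unadjusted p under 0.05. The means of 6 markers of regenerating fibres were 5.996 to 6.034 in WT and 5.958 to 6.043 in KI, and those of 7 Schwann cell markers were 5.97 to 6.20 and 5.97 to 6.18, so both overlapped between the genotypes. Of the 5 regenerating fibre markers tested 0 were called, with 2 higher and 2 lower at an unadjusted p under 0.05, so their mean hides opposite signs. The counts at an unadjusted p stand without the share of all genes at that level, so no excess is read from them. The part of these shifts in the values of the receptor genes was not tested.

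The genes whose values followed the subunits most closely over the 8 arrays were named by Pearson's r. For Chrna1 they were Spg7 (r = 0.997), Ech1 (r = 0.995) and Taf4b (r = 0.995), and for Chrne they were Sh3rf2 (r = 0.998), Atf5 (r = 0.997) and Slc40a1 (r = 0.997). All 8 values share the split between the 2 tissues, which carries most of such an r, and these are descriptions of likeness only. Of these 6 genes, Ech1 was itself called in KI muscle, higher by 0.64 (adjusted p = 0.0384).

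**Figure D4:**
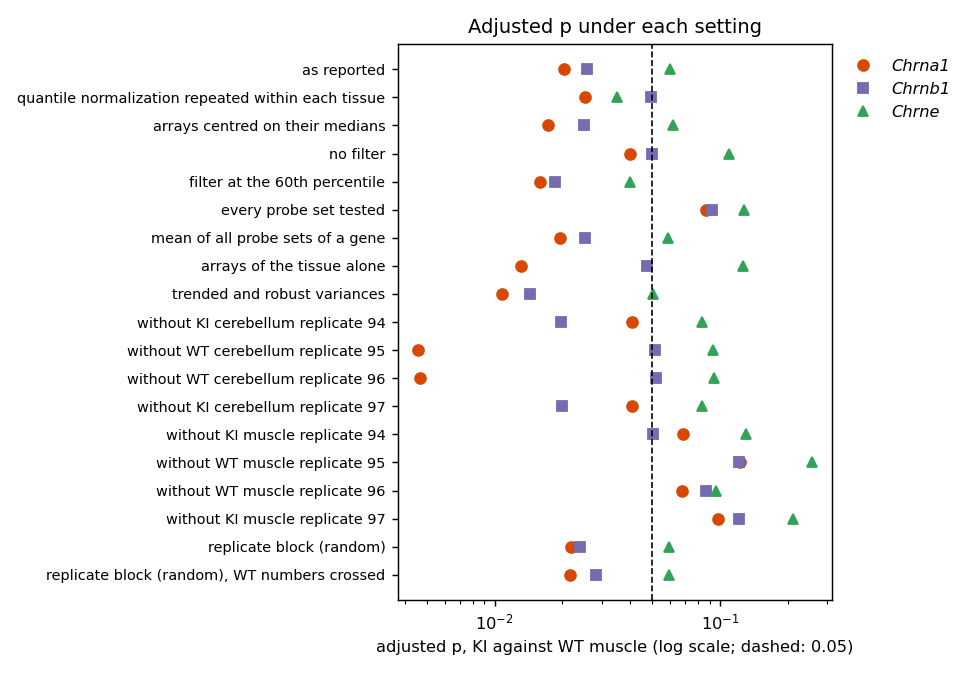
Adjusted p (log scale) of Chrna1, Chrnb1 and Chrne for KI against WT muscle, as reported and under each alternative of processing; the dashed line is 0.05. Chrna1 and Chrnb1 pass the line in most settings and fail it without any 1 muscle array, and Chrne passes it in 2 settings.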

How the data were processed

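The deposited table held 35556 probe sets on 8 Affymetrix Mouse Gene 1.0 ST arrays as log2 expression values that the authors made with RMA (GCOS is also named), per the submitters' processing notes. The sources used here give no versions, no genome build and not which arrays were normalised together. RMA corrects background, matches the intensity distributions of arrays and summarises each probe set. The platform annotation gave 1 gene symbol to 21789 probe sets, several to 1621 and none to 12146. The brightest probe set by mean over the 8 arrays stood for each of 19938 genes. For a test within a tissue, 2 or more of the tissue's 4 arrays had to reach the 40th percentile of their own probe sets, and for a test across tissues either tissue had to meet this.

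A model with 1 mean for each of the 4 groups was fitted with limma 3.58.1 (R 4.3.3) and eBayes over all genes kept in either tissue, with 4 residual degrees of freedom. The threshold was an adjusted p of 0.05 (Benjamini-Hochberg, over all genes tested), and between tissues also at 2-fold. Counts at an unadjusted p under 0.05 are given without the share of all genes at that level. Errors are SE from this fit. The script was tested on simulated data. Sequences came from RefSeq. Named genes were the 5 members, Musk, Lrp4, Rapsn, Runx1, Myog and Myod1, genes called in the lists, in lists with none called up to 3 with the smallest p (Unc50, Hspa5 and Myo5a for assembly), and the 3 genes most like Chrna1 and Chrne. Agrn, Dok7, Ache, Hdac4, Dach2, Erbb2, Fbxo32, Trim63, Myh3, Myh8, Mb, Ncam1, Kcnn3, Gadd45a, Chrna3, Chrna4, Chrna7, Chrnb2, Chrnb4, Chrm3, Gabpb1, Gabpa and Ets2 were named for their known roles, in part after their values were seen. Tcf4, Id1, Myf5, Myf6, Des and Ttn were named after their values were seen. Members and lists were chosen with earlier results of these data known. Replicate numbers recur between tissues, but no source calls them animals, so arrays were not paired. The number of arrays limits the precision. Alternatives changed the normalisation, the filter, the probe sets, the arrays fitted, the variance model and the pairing.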

Additional observations from a re-analysis of the deposited data

How the results depend on the processing

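The sign of the difference in muscle stayed the same for all 5 members in all 18 alternatives. For Chrng the difference ran only from -0.079 to -0.0018, and Chrnd lay close to background, so no direction is read from their signs. Chrna1 was called in 13 and Chrnb1 in 11 of the 18. With every probe set tested their values stayed at 1.31 and 0.84 without a call, and 0 members were called higher. With 1 array left out at a time, Chrna1 ran from 1.22 to 1.40, Chrnb1 from 0.69 to 0.98, Chrne from -0.53 to -0.40, and the number of members called higher from 0 to 2. Chrne was called lower, as 1 member, after a repeated quantile normalisation (-0.55) and with the filter at the 60th percentile (-0.46). The shift of Chrng minus Chrne was between 0.36 and 0.55 in all 7 alternatives run for it. In the cerebellum, where these genes were low, the sign turned for Chrna1 without WT replicate 95 (-0.26, over single arrays -0.26 to 0.61), Chrnb1 without KI replicate 97 (0.20; -0.25 to 0.20) and Chrnd without either (-0.012 and -0.14; -0.14 to 0.22). Myod1 in muscle turned to -0.055 after repeated quantile normalisation, -0.16 without WT muscle replicate 96 and -0.049 without KI muscle replicate 97. The cause was not tested. All genes called in muscle numbered 495 as reported and from 69 to 706 in the alternatives (69 with every probe set, 246 with no filter, 155 with the muscle arrays alone), in the cerebellum 28 and from 3 to 30, and for the difference between tissues 21 and from 0 to 63.

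Arrays with the same number deviated from their group means with r = 0.06 (KI) and -0.14 (WT) between the tissues over 12866 genes. The deviations of 2 arrays from their mean mirror each other. These r therefore cannot show whether arrays with the same number came from the same animal. With the number as a random block, 2 members were called higher and 0 lower in muscle, and all called genes there numbered 494. After seeing the data, the WT numbers were also crossed, which gave 2 members higher, 495 genes in muscle and 48 for the difference between tissues. Signal over background limits Chrng and Chrnd in both tissues and all 5 members in the cerebellum.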
